A study of Homo sapiens with 18 samples.

Results

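Histone marks were examined at the genes of 8 transcription factors and corepressors of the neuroendocrine lineage, MYT1, MYT1L, ONECUT1, ONECUT2, RUNX1T1, INSM1, INSM2 and PROX1, in V16D cells. V16D is a castration-resistant prostate cancer line derived from LNCaP, kept in RPMI1640 with 10% FBS. V16D/CTL carried a lentiviral control vector and V16D/H19 carried a lentiviral vector that overexpresses the long non-coding RNA H19, so both groups had passed through transduction. Chromatin immunoprecipitation with sequencing (ChIP-seq) was done for H3K4me3 and H3K27me3 in 3 biological replicates per line, each with its own input, which gave 12 peak lists. The 8 genes were chosen by name out of 19121 protein-coding genes, and each was scored over a window running from 3 kb upstream of its start to its end in GRCh38. The p-values given here measure the spread between these replicate libraries of a single line.

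H3K4me3 is written by the SET1 and MLL complexes and marks the starts of active or poised genes, while H3K27me3 is written by Polycomb repressive complex 2 with EZH2 as its enzyme and covers silent developmental genes. A start that carries both marks is called bivalent, a state typical of lineage regulators that are silent but can be switched on. MYT1 and MYT1L are zinc-finger factors of neurons, ONECUT1 and ONECUT2 are cut-homeodomain factors of liver, pancreas and nervous system, INSM1 and INSM2 are zinc-finger factors of endocrine and neuroendocrine cells, PROX1 is the vertebrate prospero homeodomain factor, and RUNX1T1 is a corepressor scaffold of the ETO (MTG) family. Several of them are used as markers of neuroendocrine prostate cancer (NEPC), the lineage state that luminal prostate tumours can enter under androgen deprivation.

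The 250 bases ahead of the gene start are shown for the members whose start is held in the RefSeq promoter table of GRCh38.p14, to set their CpG content and motifs beside the marks found over them. Promoters of 5 of the 8 genes were found there, and those of RUNX1T1, INSM1 and PROX1 are not shown. Each sequence runs 5′ to 3′ along the gene's strand and ends at the base before the start, with CpG dinucleotides in capitals.
MYT1, chr20:64164202-64164451, plus strand: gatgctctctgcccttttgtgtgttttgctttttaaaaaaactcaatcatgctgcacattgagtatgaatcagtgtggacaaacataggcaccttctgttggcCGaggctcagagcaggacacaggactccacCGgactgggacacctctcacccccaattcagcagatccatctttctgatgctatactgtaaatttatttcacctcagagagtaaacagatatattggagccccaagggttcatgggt
ONECUT1, chr15:52790337-52790586, minus strand: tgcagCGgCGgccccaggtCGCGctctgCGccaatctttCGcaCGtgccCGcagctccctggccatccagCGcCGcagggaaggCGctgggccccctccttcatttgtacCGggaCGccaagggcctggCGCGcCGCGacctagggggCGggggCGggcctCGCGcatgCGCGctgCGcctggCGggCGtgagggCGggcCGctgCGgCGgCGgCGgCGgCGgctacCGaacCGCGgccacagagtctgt
ONECUT2, chr18:57435124-57435373, plus strand: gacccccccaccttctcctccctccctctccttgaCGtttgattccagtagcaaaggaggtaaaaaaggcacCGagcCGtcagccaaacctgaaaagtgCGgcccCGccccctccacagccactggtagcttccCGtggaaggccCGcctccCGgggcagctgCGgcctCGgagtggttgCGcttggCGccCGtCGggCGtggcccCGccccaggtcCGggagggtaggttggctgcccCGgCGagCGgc
INSM2, chr14:35533914-35534163, plus strand: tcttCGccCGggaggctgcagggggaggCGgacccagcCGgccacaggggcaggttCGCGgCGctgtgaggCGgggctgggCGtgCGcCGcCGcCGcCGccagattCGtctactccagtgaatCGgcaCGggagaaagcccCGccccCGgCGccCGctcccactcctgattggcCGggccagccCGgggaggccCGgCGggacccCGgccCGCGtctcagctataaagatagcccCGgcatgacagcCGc
MYT1L, most upstream start, chr2:2331276-2331525, minus strand: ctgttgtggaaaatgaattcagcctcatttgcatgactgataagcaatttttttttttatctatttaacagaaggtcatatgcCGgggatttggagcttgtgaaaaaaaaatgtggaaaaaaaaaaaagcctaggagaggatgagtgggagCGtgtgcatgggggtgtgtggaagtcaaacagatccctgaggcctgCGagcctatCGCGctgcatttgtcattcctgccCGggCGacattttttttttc
MYT1L, most downstream of 4 listed starts, chr2:2324346-2324595, minus strand: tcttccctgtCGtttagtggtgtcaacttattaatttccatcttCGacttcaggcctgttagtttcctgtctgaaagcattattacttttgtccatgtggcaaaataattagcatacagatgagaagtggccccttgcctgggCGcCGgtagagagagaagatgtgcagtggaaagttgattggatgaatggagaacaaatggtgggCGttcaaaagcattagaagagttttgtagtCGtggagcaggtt

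The ONECUT1 stretch held 37 CpG dinucleotides and that of INSM2 held 30, against a median of 11 over 35116 promoter entries. ONECUT2 held 20. The MYT1 stretch held 2, with fewer in 14.7% of promoters, and it lay under an H3K4me3 peak in all 6 libraries, as did the stretches of ONECUT1, ONECUT2 and INSM2. The MYT1L stretches shown held 7 and 6 CpG dinucleotides and lay under no H3K4me3 peak in any library. The downstream MYT1L stretch lay under an H3K27me3 peak in all 6 libraries and the upstream stretch in none. The INSM2 stretch lay under H3K27me3 in 2 V16D/CTL and 3 V16D/H19 libraries, whereas those of MYT1, ONECUT1 and ONECUT2 lay under H3K27me3 in none. The Sp1-type box GGGCGG, searched on both strands, was present upstream of ONECUT1, ONECUT2 and INSM2 and in 42.6% of all promoters. The TATA box TATAAA was found upstream of INSM2 only among the sequences shown and in 10.7% of all promoters. The CCAAT box was found upstream of MYT1, ONECUT1 and INSM2 and of the downstream MYT1L start, against 32.0% of all promoters.

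The H3K4me3 lists held 20048 to 21934 peaks with a median fold over input of 24.6 to 28.6 and covered 28.8 to 31.4 Mb. The H3K27me3 lists held 55060 to 72289 broad peaks in V16D/CTL and 56239 to 62879 in V16D/H19, with a median fold of only 3.35 to 3.53, and covered 45.1 to 62.2 Mb in V16D/CTL against 42.3 to 48.4 Mb in V16D/H19. H3K27me3 peaks with a −log10 q of at least 5 numbered 510 to 699 per V16D/CTL library and 142 to 189 per V16D/H19 library, without overlap. Gene windows with H3K27me3 in both groups had a median log2 ratio of V16D/H19 over V16D/CTL of -0.32 for covered bases, which became -0.06 after each library was scaled to the same total, and of -0.40 for area, which became -0.09. Starts of the 7 luminal prostate markers (KLK2, KLK3, TMPRSS2, KRT8, KRT18, HOXB13, FOXA1) carried H3K4me3 and no H3K27me3 in every library, while those of the 3 basal markers (KRT5, KRT14, TP63) carried no H3K4me3. No library had a peak within 10 kb of the H19 gene. The overexpression came from a vector and the lists hold no RNA levels, so it cannot be checked in them.

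The 8 genes differed in which marks lay at their starts. H3K4me3 within 1 kb of the start was present in all 6 libraries at MYT1, ONECUT1, ONECUT2, RUNX1T1 and INSM2, in 3 libraries at PROX1, in 1 library at INSM1 and in none at MYT1L. H3K27me3 within 1 kb of the start was present in all 6 libraries at ONECUT1, RUNX1T1, INSM1, INSM2 and PROX1, in 2 V16D/CTL libraries at MYT1, in 1 V16D/CTL library at MYT1L and in none at ONECUT2. Both marks stood within 1 kb of the start in the same replicate at 4, 4 and 4 members in V16D/CTL and at 3, 5 and 4 members in V16D/H19. ONECUT1, RUNX1T1 and INSM2 were among them in every replicate. Of all 19121 protein-coding genes, 11972 to 12209 per library had H3K4me3 within 1 kb of the start. H3K27me3 was there at 1745 to 2200 genes per library and both marks at 975 to 1130. The members' counts are a description and were not tested against these.

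**Figure D1:**
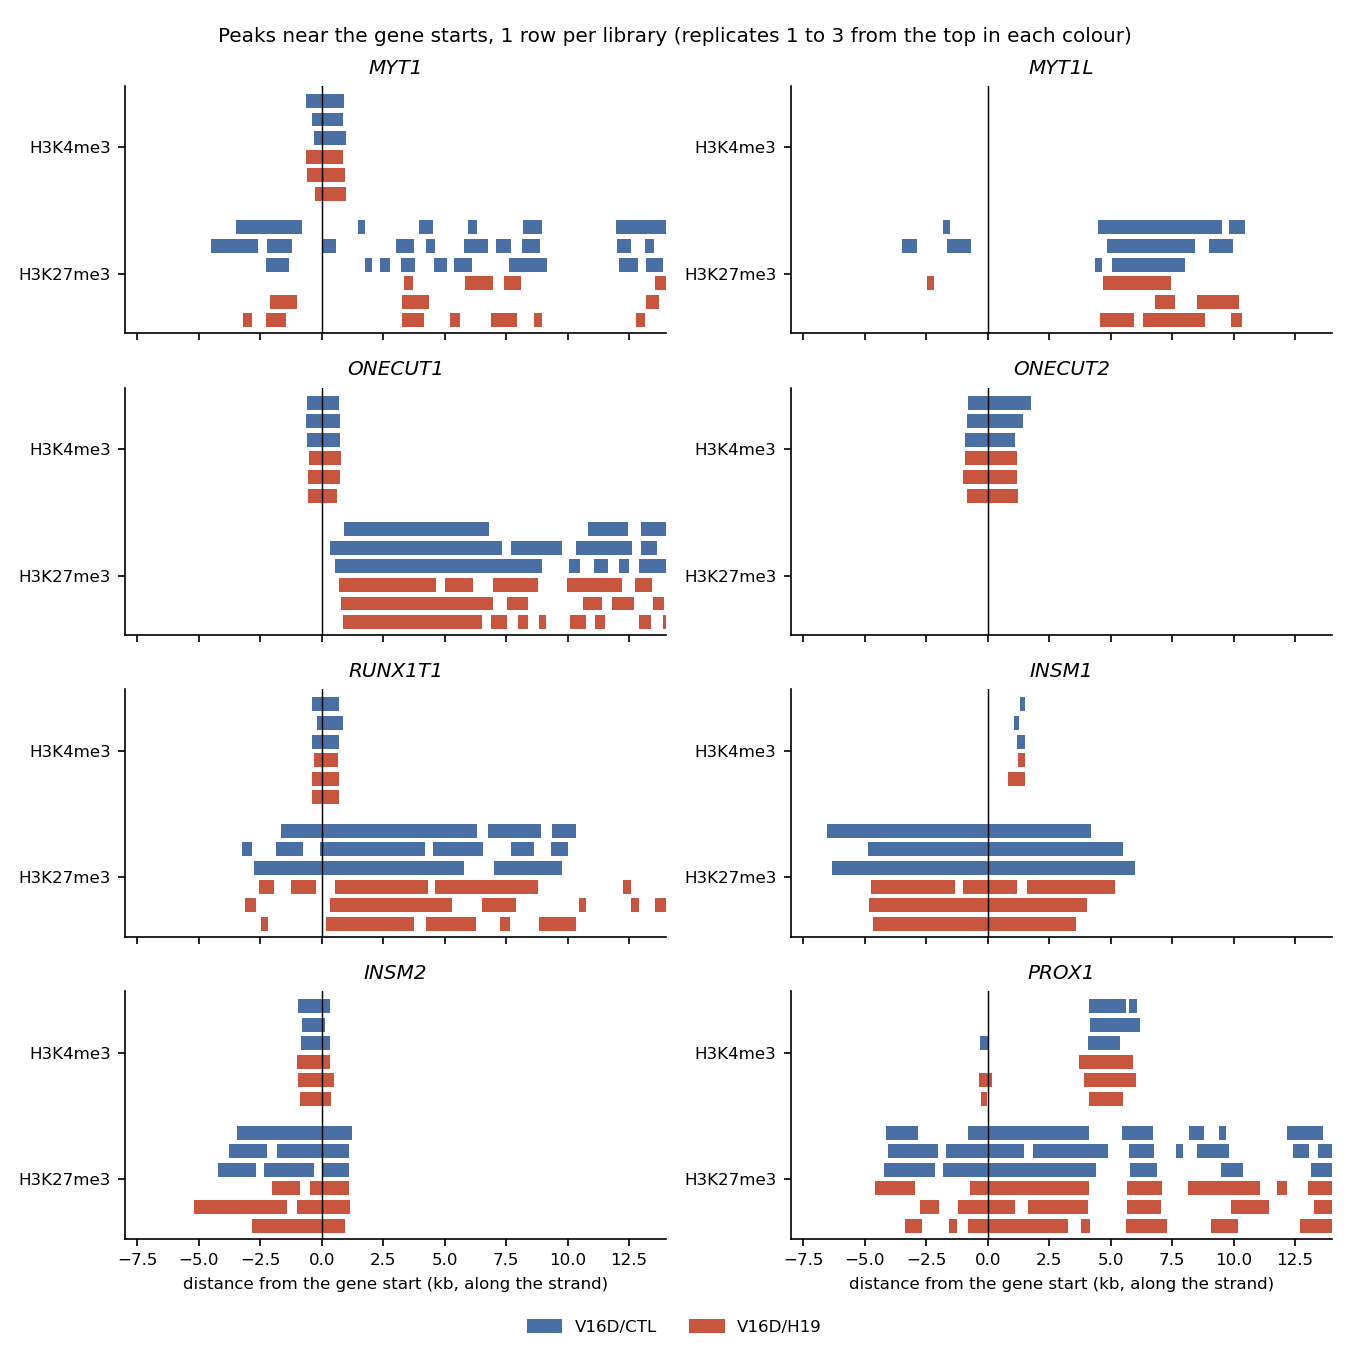
Peaks of H3K4me3 (upper 6 rows of each panel) and H3K27me3 (lower 6 rows) in each gene window, by distance from the gene start along the strand, from 8 kb before to 14 kb after it, in V16D/CTL (blue) and V16D/H19 (red). A sharp H3K4me3 peak sits over the start of MYT1, ONECUT1, ONECUT2, RUNX1T1 and INSM2, ONECUT2 has no H3K27me3 row filled, and the single H3K27me3 domain of INSM1 is 10393 to 12348 bases wide in V16D/CTL.

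Which of these genes lost or gained the repressive mark with H19 was asked first. MYT1, MYT1L and RUNX1T1 had fewer bases under H3K27me3 peaks in every V16D/H19 library than in any V16D/CTL library, and none of the 8 genes had more. By enriched area, the sum of covered bases times the fold over input of their peak, ONECUT1 joined these 3 and again no member was higher. Counts of this kind have to be read against all genes, because groups did not overlap in the lower direction at 15.9% of 5398 gene windows for covered bases and at 19.5% for area, and in the higher direction at 2.41% and 2.35%. With library totals made equal, these shares were 9.37% lower and 6.61% higher for covered bases, and 10.3% lower and 6.76% higher for area. Among the 1647 windows with at least 3000 covered bases in the mean of the 6 libraries, which include all 7 members that had any H3K27me3, the shares were 30.4% lower and 2.37% higher for covered bases and 39.9% lower and 2.37% higher for area. The members' 3 of 7 and 4 of 7 therefore stood in a mark that was lower at many genes of like domain size, and nothing particular to these genes is read from the counts. With 3 libraries per group the exact permutation test cannot give a p under 0.1, and after adjustment over all windows the smallest value was 0.545 for covered bases and 0.458 for area.

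**Figure D2:**
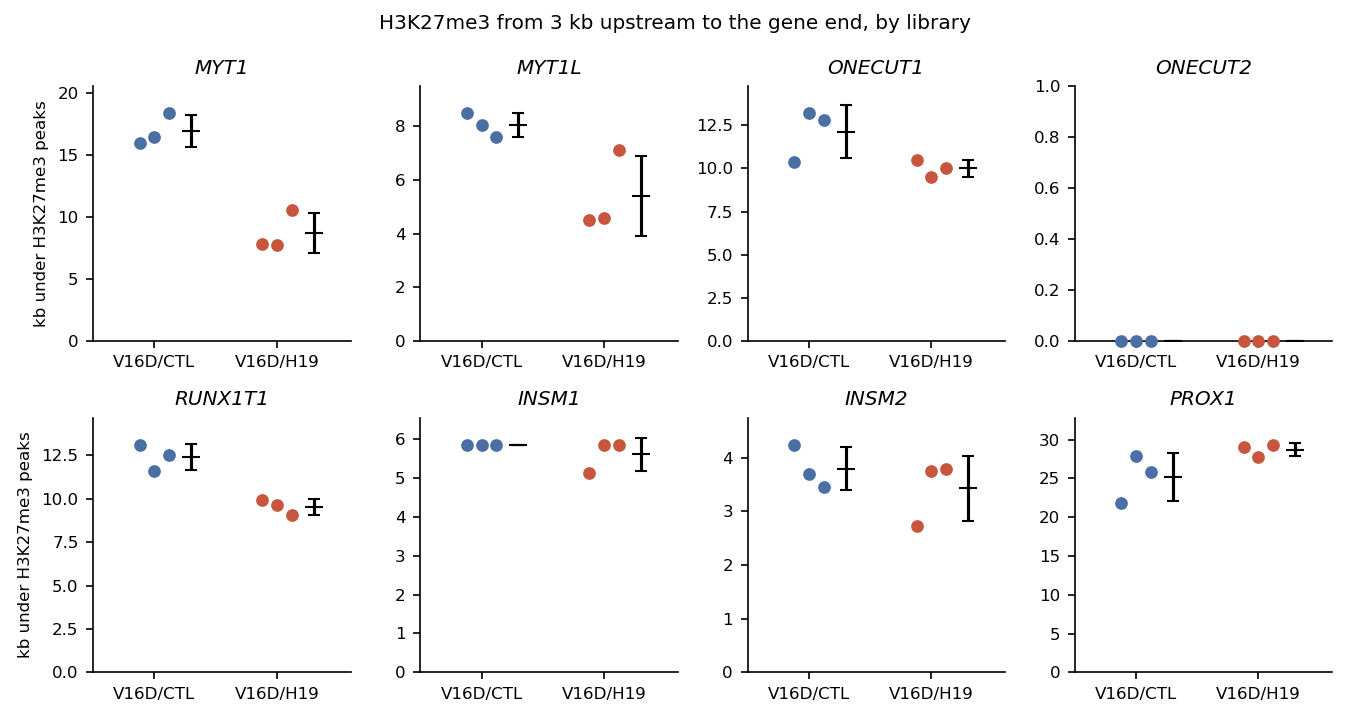
Bases under H3K27me3 peaks (kb, axis from 0) in each gene window for the 3 V16D/CTL (blue) and 3 V16D/H19 (red) libraries, with the mean and SD as a bar beside the points. The groups are apart at MYT1, MYT1L and RUNX1T1, overlap at ONECUT1, INSM1, INSM2 and PROX1, and are all at 0 at ONECUT2.

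MYT1 (chr20:64164452-64242253, plus strand) had the largest relative difference of the 7 genes with H3K27me3. Peaks of the mark covered 15944, 16449 and 18362 bases of its 80.8 kb window in V16D/CTL replicates 1 to 3 and 7788, 7723 and 10534 bases in V16D/H19. Every V16D/H19 library lay below every V16D/CTL library, with means of 16918 ± 1276 and 8682 ± 1604 bases (SD, n = 3; ratio 0.513; two-sided exact permutation p = 0.1, the smallest the design allows). The number of its H3K27me3 peaks was 16, 18 and 21 in V16D/CTL against 13, 12 and 13 in V16D/H19, and no share over all windows was computed for it. Its strongest peak reached a fold over input of 4.74, 4.65 and 4.32 in V16D/CTL against 3.95, 3.65 and 4.10 in V16D/H19, again without overlap, as at 11.4% of all windows (2.45% were higher). After subtraction of the median of all genes, its log2 ratio was -0.64 for covered bases and -0.71 for area, and 18.4% and 16% of genes lay lower still. MYT1 was the only member that stayed lower without overlap in covered bases when each library was scaled to a common total, with a log2 ratio of -0.72.

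H3K4me3 at MYT1 was a single peak over the start, from 312 to 654 bases upstream in V16D/CTL to 844 to 991 bases downstream. Its fold over input was 25.8, 28.1 and 20.3 in V16D/CTL against 32.7, 27.9 and 23.2 in V16D/H19, and the groups overlapped (exact p = 0.5). Only V16D/CTL replicate 2 had bases under both marks, 539 of them. The nearest H3K27me3 peak was 136 and 760 bases away in V16D/CTL replicates 1 and 3, and 2472, 393 and 1174 bases away in V16D/H19.

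MYT1L (chr2:1789113-2331275, minus strand), which silences non-neuronal genes in neurons, carried H3K27me3 around its alternative downstream starts and far inside the gene. The distant peaks recurred in every library, in V16D/CTL replicate 1 at 326158 to 327877 and 468901 to 469668 bases from the most upstream start. The part of each place in the difference over the window was not tested. Across its 545 kb window the mark covered 8477, 8057 and 7607 bases in V16D/CTL and 4494, 4575 and 7104 bases in V16D/H19. The groups did not overlap, but V16D/H19 replicate 3 lay close to V16D/CTL (means 8047 ± 435 and 5391 ± 1484 bases, ratio 0.670, exact p = 0.1). The groups overlapped once libraries were scaled to a common total or cut to equal list length, and within 5 kb of the most upstream start. Its widest H3K27me3 peak was 5042, 3568 and 2962 bases in V16D/CTL and 2780, 1728 and 2520 bases in V16D/H19, which did not overlap, as at 12.9% of all windows (1.76% were higher). H3K4me3 at MYT1L was a small peak far inside the gene, 209858 to 210336 bases from the start, with a fold of 5.24, 5.58 and 8.61 in V16D/CTL against 6.74, 7.07 and 4.43 in V16D/H19. A further peak in V16D/H19 replicate 3, with a fold of 6.13, lay 495411 bases from the start.

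RUNX1T1 (chr8:91954967-92103385, minus strand), the scaffold that recruits histone deacetylases, carried both marks within 1 kb of its start in every replicate. H3K27me3 lay over the start itself in the 3 V16D/CTL libraries and in none of V16D/H19, where the peaks downstream of it began 545, 314 and 171 bases inside the gene. The share of all starts with such a separation was not computed, so nothing particular to RUNX1T1 is read from it. H3K27me3 covered 13114, 11594 and 12540 bases in V16D/CTL and 9957, 9643 and 9048 bases in V16D/H19. The groups stood apart (means 12416 ± 767 and 9549 ± 462 bases, ratio 0.769, exact p = 0.1), and by area the ratio was 0.647. Relative to the median of all genes, its log2 ratio was -0.06 for covered bases and -0.23 for area, close to that median for covered bases and below it for area. Its groups overlapped for covered bases after scaling to library totals and stayed apart for area.

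Of the 1084 to 1087 bases under its H3K4me3 peak in V16D/CTL, 1087, 970 and 1085 also lay under H3K27me3. In V16D/H19, 246, 363 and 546 bases lay under both marks. The V16D/H19 libraries were all below the V16D/CTL libraries (means 1047 ± 67.0 and 385 ± 151 bases, exact p = 0.1), a separation seen in the lower direction at 9.78% and in the higher direction at 5.72% of the 1993 windows with bases under both marks, and RUNX1T1 was the only member with it. The H3K4me3 peak itself was 1084 to 1087 bases wide in V16D/CTL and 1015 to 1107 in V16D/H19 (exact p = 0.7), and its fold was 20.6, 19.2 and 16.6 against 15.2, 15.6 and 16.8 (exact p = 0.2). RUNX1T1 lies beyond 45 Mb on chromosome 8, where the groups did not overlap in the lower direction at 24.5% of 155 windows for covered bases and 30.3% for area, and where 83 of 83 sites in the authors' H3K27me3 table were lower in V16D/H19. The part of this region in the RUNX1T1 result was not tested.

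ONECUT1 (chr15:52755053-52790336, minus strand) had a sharp H3K4me3 peak over its start and an H3K27me3 domain that began just inside the gene. H3K27me3 covered 10361, 13192 and 12832 bases in V16D/CTL and 10498, 9490 and 10019 bases in V16D/H19. These groups overlapped through V16D/CTL replicate 1 and V16D/H19 replicate 1, and without either of these libraries they did not (differences of -3010 and -2374 bases). Leaving out a library also raised the share of all windows that were lower, as given further below. Its area was 47687, 61266 and 53824 in V16D/CTL against 40001, 37592 and 41235 in V16D/H19, which did not overlap (ratio 0.730, exact p = 0.1). Against the median of all genes its log2 ratio for area was -0.06. The fold of its H3K4me3 peak was 22.8, 46.5 and 29.7 in V16D/CTL against 21.3, 26.6 and 22.8 in V16D/H19, with replicate 2 of V16D/CTL highest and the groups overlapping.

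ONECUT2 (chr18:57435374-57491298, plus strand), a factor linked to androgen-receptor-independent prostate cancer, was the member without the repressive mark. No H3K27me3 peak touched its 58.9 kb window in any of the 6 libraries, so no comparison of that mark was possible. Its H3K4me3 peak was the widest of the members' start peaks, at 2555, 2283 and 2036 bases in V16D/CTL and 2119, 2215 and 2062 bases in V16D/H19, and its fold was 25.8, 40.3 and 33.4 against 20.7, 38.0 and 36.3. Both ranges overlapped between groups (exact p = 0.5 and 0.8). ONECUT2 thus carried H3K4me3 alone, as the luminal genes did. Its paralogue ONECUT1 had both marks within 1 kb of its start, with few or no bases under both. ONECUT3 had no H3K4me3 peak and 14277 to 19702 bases under H3K27me3.

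INSM1 (chr20:20368104-20370949, plus strand), whose protein recruits the demethylase KDM1A, lay inside a single H3K27me3 domain. The peak over its start was 10746, 10393 and 12348 bases wide in V16D/CTL. In V16D/H19 the widest peak was 3547, 8869 and 8270 bases, and in replicate 1 the domain was split into 3 peaks. The widths did not overlap (exact p = 0.1), as at 12.9% of all windows in the lower direction, yet the window of 5846 bases was filled in all V16D/CTL libraries and in V16D/H19 replicates 2 and 3, with 5115 bases in replicate 1. A filled window cannot gain covered bases. Within 5 kb of the start H3K27me3 covered 9205, 9887 and 10001 bases in V16D/CTL against 9012, 8869 and 8270 in V16D/H19, without overlap. The strongest fold was 5.60 to 6.38 in V16D/CTL and 5.76 to 7.52 in V16D/H19, above at least 99.5% of the peaks of each list. H3K4me3 at INSM1 was a peak of 204 to 692 bases inside the gene with a fold of 3.99 to 8.50 in 5 libraries and was missing in V16D/H19 replicate 3.

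INSM2 (chr14:35534164-35537054, plus strand) carried both marks within 1 kb of its start in every replicate. H3K27me3 covered 4239, 3691 and 3451 bases in V16D/CTL against 2728, 3759 and 3793 in V16D/H19 (exact p = 0.6), so the groups overlapped. Its H3K4me3 peak was 1305, 929 and 1180 bases wide in V16D/CTL against 1331, 1438 and 1246 in V16D/H19, with overlap (difference 200 bases, exact p = 0.2). Without V16D/CTL replicate 1 or V16D/H19 replicate 3 the groups did not overlap (differences of 284 and 246 bases), as at 15.4% and 21.6% of all windows in the higher direction. Nothing particular to INSM2 is read from this. Between 70.2% and 100% of the bases under H3K4me3 lay under H3K27me3 as well.

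PROX1 (chr1:213983151-214041510, plus strand) had H3K27me3 over much of the gene and its main H3K4me3 peak about 4.6 kb inside it. The repressive mark covered 21822, 27874 and 25842 bases in V16D/CTL against 29058, 27725 and 29324 in V16D/H19, with overlap (exact p = 0.2), and PROX1 was the only member with a higher mean in V16D/H19. After scaling to library totals the groups did not overlap and V16D/H19 was higher, by 8504 bases. The strongest fold ran the other way, at 5.26, 5.89 and 5.40 in V16D/CTL against 4.29, 4.45 and 4.69 in V16D/H19, without overlap, as at 11.4% of all windows in the lower direction. Around the start alone the area was 29518, 37360 and 41419 in V16D/CTL against 22672, 26666 and 19604 in V16D/H19, without overlap (ratio 0.637, exact p = 0.1), while the whole window had a ratio of 1.03. H3K4me3 at 4.6 kb had a fold of 28.1, 21.4 and 18.1 against 20.0, 26.2 and 19.2 (exact p = 0.8).

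Restricted to 5 kb on either side of the start, H3K27me3 covered bases were lower without overlap at MYT1, ONECUT1, RUNX1T1 and INSM1, and area also at PROX1. All windows of this size gave 14.4% lower and 1.82% higher for covered bases, and 18.4% lower and 1.82% higher for area. Among the 870 starts with at least 3000 covered bases, 29.2% were lower for covered bases and 44.0% for area, and 6 of the 8 members were among these starts. The lowest ratio among the called members was that of MYT1, with an area of 16375, 17483 and 13776 in V16D/CTL against 5857, 10039 and 9078 in V16D/H19 (ratio 0.524).

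**Figure D3:**
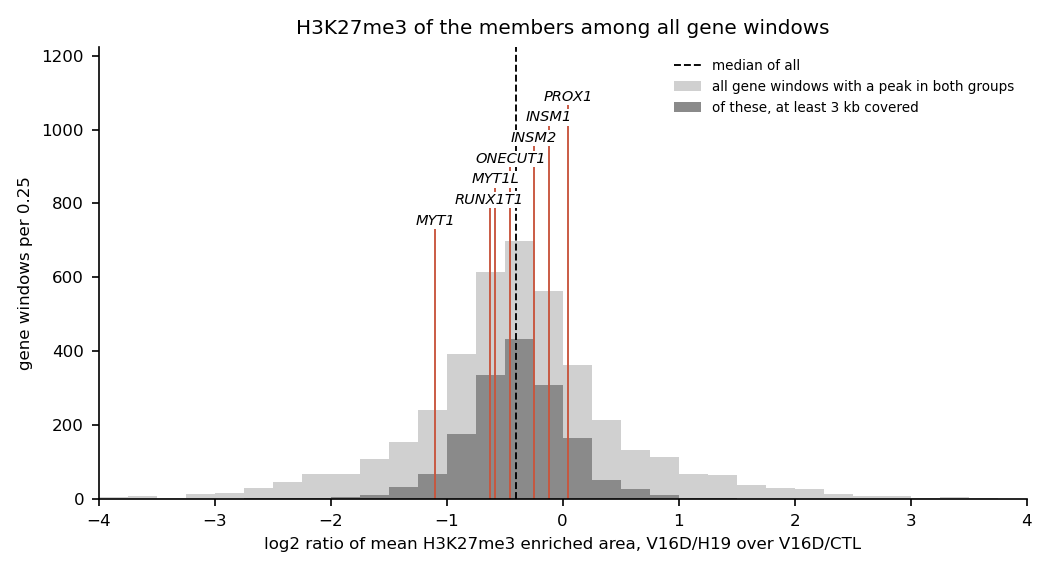
Gene windows with H3K27me3 peaks in both groups (4131 windows, light bars, and the 1647 with at least 3000 covered bases, dark bars) by the log2 ratio of mean enriched area in V16D/H19 over V16D/CTL, with the members as red lines and the median of all windows, -0.40, as a dashed line. MYT1 at -1.10 lies farthest below the median and PROX1 at 0.05 farthest above it, and 12 windows beyond 4 on either side are not drawn.

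H3K4me3 was compared in the same way to ask whether the active mark moved with H19. No member had H3K4me3 covered bases or area that were apart between groups, 0 of 8 in either direction. Over all 13963 windows, covered bases were lower without overlap at 5.91% and higher at 8.32%, and area at 4.25% and 7.96%. Differences in mean ran both ways, with 3 members lower and 5 higher for each measure. In limma's test over all windows, adjusted p-values of the members were 0.649 to 0.954 for covered bases and 0.813 to 0.993 for area, and no member had an unadjusted p under 0.05. The same test gave no member past an adjusted p of 0.05 for H3K27me3 either, with 0.162 to 0.904 for covered bases and 0.221 to 0.928 for area. At an unadjusted p under 0.05 limma gave 1 member for covered bases, MYT1, with a log2 difference of -0.94, and 2 members for area, MYT1 and RUNX1T1.

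**Figure D4:**
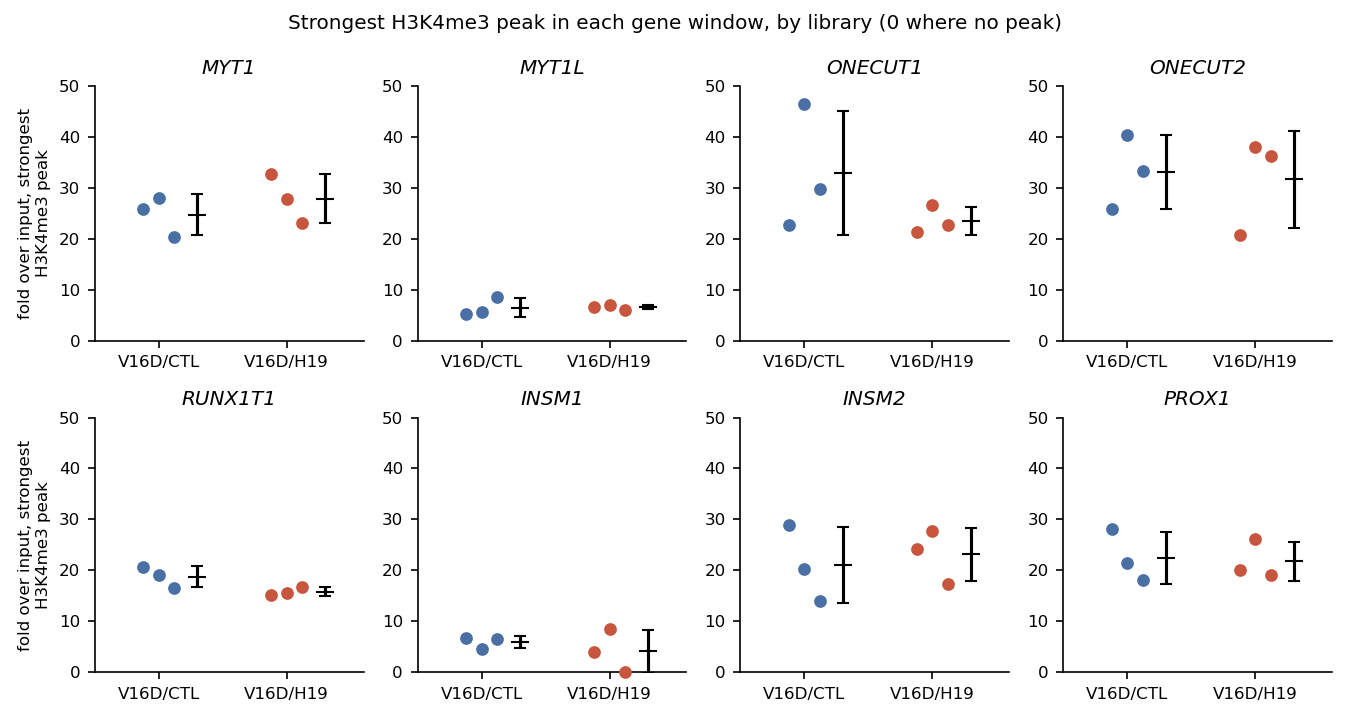
Fold over input of the strongest H3K4me3 peak in each gene window, for the 3 V16D/CTL (blue) and 3 V16D/H19 (red) libraries, with the mean and SD as a bar beside the points and 0 where no peak was listed. The groups overlap at all 8 genes, and INSM1 and MYT1L stay at or under 8.61.

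The authors' differential tables, made with DiffBind from read counts in consensus sites, were read as another measure of the same libraries. The paper itself names MYT1, ONECUT1 and RUNX1T1 among genes with reduced H3K27me3. Their rows were thus known beforehand and are no independent support. A row means that the site passed the study's false discovery threshold of 0.05. The H3K27me3 table assigned 1 site each to MYT1, ONECUT1, RUNX1T1 and INSM1, all within 1 kb of a start and all lower in V16D/H19, and the H3K4me3 table assigned none to any member. Of the 4464 windows with H3K27me3 in at least 2 libraries, 12.3% belonged to genes with a lower listed site and 0.986% to genes with a higher listed site, and of the 1647 windows with large domains 25.7% had a lower one. For H3K4me3 the shares were 7.48% and 2.4% of 13731 windows. Of all 1140 H3K27me3 sites listed, 91.5% were lower.

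The MYT1 site (chr20:64159015-64173627) had the authors' mean concentration, the log2 of the normalised read count, at 7.58 in V16D/CTL and 6.97 in V16D/H19, a difference of -0.61 or a ratio of 0.655. The RUNX1T1 site (chr8:92092632-92106647) stood at 8.49 and 7.98, a ratio of 0.702. The INSM1 site (chr20:20361228-20375784) stood at 8.99 and 8.66, a ratio of 0.796, and had more reads than 94.0% of the listed sites. The ONECUT1 site (chr15:52773128-52790238) stood at 8.46 and 8.16, a ratio of 0.812, and 88.3% of the listed sites had a larger fall. These differences of -0.30 to -0.61 compare with a median of -0.57 over the table, and the pooled columns carry no replicate error. A further site overlapped a member without bearing its name: chr1:213981325-213988045 lies over the PROX1 start but was assigned to the antisense RNA PROX1-AS1, and stood at 7.65 and 7.16, a ratio of 0.712.

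**Figure D5:**
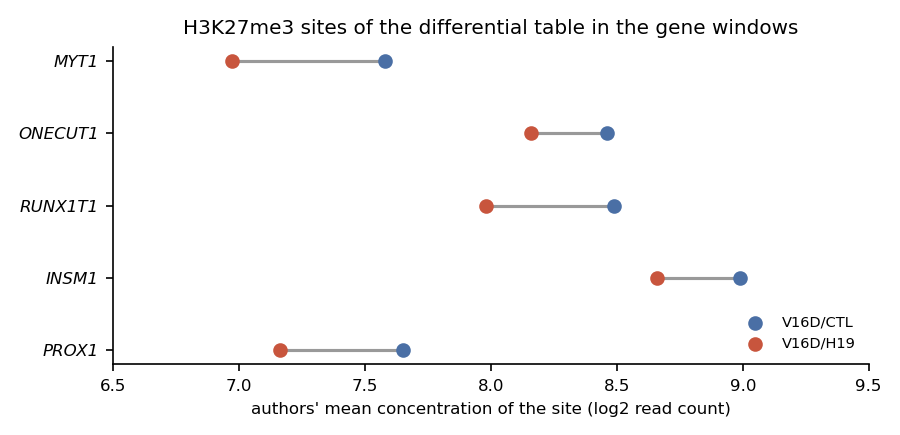
Authors' mean concentration (log2 normalised read count, axis from 6.5) of the 5 listed H3K27me3 sites that overlap the members' windows, in V16D/CTL (blue) and V16D/H19 (red). V16D/H19 is lower at each, by 0.30 at ONECUT1 to 0.61 at MYT1.

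Genes near the members in function were taken from lists. Among the 5 paralogues (ST18, ONECUT3, CBFA2T2, CBFA2T3, PROX2), CBFA2T3, the paralogue of RUNX1T1, differed in both marks: H3K27me3 covered 15287, 23718 and 18687 bases in V16D/CTL against 8757, 8887 and 9046 in V16D/H19. Its H3K4me3 covered 456, 0 and 443 bases in V16D/CTL against 1670, 1233 and 1277 in V16D/H19. Neither pair of groups overlapped (exact p = 0.1 each), and the authors' tables listed no site for CBFA2T3. No library had a peak of either mark within 1 kb of its start, so these peaks lay elsewhere in its window. Over all windows, H3K27me3 covered bases were lower without overlap at 15.9% and H3K4me3 covered bases higher at 8.32%. The share of windows with both differences was not computed. The 9 corepressor partners through which MYT1L, INSM1 and RUNX1T1 act (HDAC1, HDAC2, HDAC3, NCOR1, SIN3A, SIN3B, KDM1A, RCOR1, RCOR2) all carried H3K4me3 in their gene windows, had no H3K27me3 peak, and gave 0 lower and 0 higher for H3K4me3. RCOR2 had no H3K4me3 peak within 1 kb of its start in any library.

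Of 11 other neural and endocrine factors, 10 had H3K27me3, 3 were lower without overlap in covered bases and 5 in area, and none was higher. Of all windows 15.9% and 19.5% were lower, and 30.4% and 39.9% of those with at least 3000 covered bases. Nothing particular to these factors is read from the counts. The 3 lower in covered bases were PAX6 (ratio 0.901), NKX2-2 (0.726) and FEV (0.522). H3K4me3 covered bases were higher at 1 of the 7 that had the mark, POU4F1 (ratio 1.27), and at 8.32% of all windows. In the marker lists, by covered bases, the 7 luminal genes gave TMPRSS2 higher (1.29) and KLK2 lower (0.737) in H3K4me3. Of all windows, 5.91% were lower in H3K4me3. The neuroendocrine genes gave SYP higher in H3K4me3 (1.20), 1 of 4 with the mark, and CHGB lower in H3K27me3 (0.552), 1 of 5. TP63 and COL1A1 were lower in H3K27me3 (0.531 and 0.631), 1 of 2 basal and 1 of 3 fibroblast genes with the mark. The other genes of these lists were not apart, and nothing particular to the lists is read from these counts. By area, the H3K4me3 groups overlapped at SYP (ratio 0.951) and at KLK2 (0.459). The leukocyte and endothelial genes, 2 of 3 of which had a strand, gave none.

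Genes whose starts looked most like each member were sought by the root mean square difference of log2 enriched area within 5 kb of the start over the 12 libraries. ONECUT2 was matched closest by CCDC88A (0.0773) and FAM169A (0.0997), and MYT1 by LMX1B (0.356) and HTR7 (0.389). RUNX1T1 was nearest to HOXB9 (0.354) and SHISA6 (0.357), and ONECUT1 to TMEM108 (0.383) and KSR1 (0.389). MYT1L was nearest to PRMT8 (0.304) and GNGT1 (0.326), INSM2 to CYP26B1 (0.285) and BATF3 (0.315), and PROX1 to OXR1 (0.223) and EGR3 (0.265). INSM1 had the loosest matches, SCRT1 (0.558) and HMX3 (0.596).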

How the data were processed

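H3K4me3 and H3K27me3 ChIP-seq of 6 libraries each, with 6 input libraries, was sequenced by the authors as 75 bp single-end reads on hg38. Per the labels and the methods, peaks were called per library with MACS2 (narrow for H3K4me3, broad for H3K27me3); DiffBind and ChIPseeker were used for the differential tables. Tool versions are not given in the sources used here. The deposited peak lists give a fold (ratio) over input and a −log10 q per peak. The deposited tables give each group's concentration as a log2 value, the authors' mean, and columns of their own fold changes and p-values, which were not used. Of their starts, 54.9% (H3K27me3) and 51.4% (H3K4me3) equalled a 0-based peak start and 0.0% a 1-based one, so starts were raised by 1.

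Gene windows were built from RefSeq GRCh38.p14 genes (19121 of 20037 with a strand, from GENCODE by symbol). Covered bases and enriched area were computed per library. Groups were called apart where their libraries did not overlap, with a two-sided exact permutation test over 20 assignments, adjusted by Benjamini-Hochberg over all windows with a peak. limma 3.58.1 on log2(value + 500) was an alternative, as were stricter peaks (−log10 q of at least 5), equal list lengths, library totals, other windows and leaving out libraries. The scripts were tested on simulated data. Bases under both marks, strongest fold, widest peak and the comparison with large domains were added after values were seen. Replicate numbers did not pair the libraries. Sequencing depth cannot be read from the peak lists, and the depths that the paper gives per sample were not used here. No interval or floor is given. Genes named from the other lists are those apart in covered bases, at most 3 per list and mark by size of difference, and the 2 nearest per member. Further paralogues are described as well. The members and lists were chosen with earlier results of these data known. Some genes of the lists are not reported here, and the counts are without them.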

Additional observations from a re-analysis of the deposited data

How the results depend on the processing

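Counts of members apart between groups for H3K27me3 changed with scaling. With peaks of −log10 q of at least 5 only, members lower went from 3 to 0 in covered bases and from 4 to 0 in area, but MYT1 and MYT1L then had no peak left to compare and 5 members remained. Among these the covered-base differences of RUNX1T1 and ONECUT1 were -2359 and -4291, against -2867 and -2126 with all peaks, and their groups overlapped. Scaling to library totals left 1 lower (MYT1) in covered bases with 1 higher (PROX1), and 2 lower (MYT1 and RUNX1T1) in area with 2 higher (INSM1 and PROX1). The INSM1 area difference then reversed to 4396 and, within 5 kb of the start, the PROX1 area difference reversed to -13118. Equal list lengths gave 1 higher in covered bases (PROX1). limma gave 0 lower for both measures, also with the replicate number as a block (0 for covered bases and 0 for area), where adjusted p-values of the members were at least 0.251. Same-numbered libraries did not deviate together (correlations -0.027 to 0.004).

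For H3K4me3, scaling to library totals gave 1 member lower (ONECUT1) and 1 higher (INSM2) in covered bases, where 8.16% of all windows were lower and 7.21% higher. Leaving out 1 library at a time gave 0 to 1 lower and 0 to 3 higher in covered bases, 3 of them (INSM1, INSM2 and PROX1) without V16D/H19 replicate 3, where 21.6% of all windows were higher, and 0 to 1 in each direction for area. All windows then gave 7.66% to 12.7% lower and 11.2% to 21.6% higher in H3K4me3 covered bases. For H3K4me3 area the shares were 6.8% to 11.0% lower and 10.8% to 17.6% higher. For H3K27me3, leaving out 1 library gave 3 to 4 lower and 0 to 1 higher (PROX1, without V16D/CTL replicate 2 or V16D/H19 replicate 2) in covered bases, and 4 to 5 lower in area. All windows then gave 18.9% (without V16D/H19 replicate 1) to 31.7% (without V16D/CTL replicate 1) lower in covered bases and 22.6% to 34.3% in area. The mean number of members with H3K27me3 at the start was 5.5 and 1.83 with stricter peaks, and with both marks 4.0, 1.0 with stricter peaks and 5.17 with a promoter of 3 kb. Of the 4 listed H3K27me3 sites, 2 differed by at least 0.5. Over 324 single-gene alternatives, 281 kept the call or the lack of one, 11 lost the call, 30 gained it and 2 reversed. Differences without a call could change sign among the 281. That of INSM1 H3K4me3 covered bases went from 98.0 to -81.7 without V16D/H19 replicate 2. The causes were not tested. Peak lists hold no reads, so weak signal below the peak threshold cannot be seen.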

Other observations

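Among the paralogues, CBFA2T3 combined the 2 marks in opposite directions over its window. Its H3K4me3 area was 1939, 0 and 2138 in V16D/CTL against 17879, 25400 and 14683 in V16D/H19. Its H3K27me3 area was 62407, 92096 and 71928 against 32545, 32776 and 32493. None of these peaks lay within 1 kb of its start. CBFA2T2, also of the RUNX1T1 family, had no H3K27me3 peak in any library. Its H3K4me3 area was 147897, 95540 and 103217 in V16D/CTL against 150868, 155576 and 173955 in V16D/H19, without overlap, as at 7.96% of all windows in the higher direction. Its H3K4me3 covered bases overlapped, at 2634, 2251 and 2301 in V16D/CTL against 3327, 2455 and 2148 in V16D/H19 (exact p = 0.7). ST18, the third gene of the MYT1 family, had 1358 to 5910 bases under H3K27me3 with overlapping groups, and an H3K4me3 peak in V16D/CTL replicate 1 only.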
